A study of Mus musculus with 14 samples.

Results

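The genes described here are 45 genes of the G2 phase and mitosis, taken from a list of names and found in the RPKM files of postnatal mouse male germ cells, which hold 24340 gene symbols. They were chosen by name, by a rule that uses no value, though with earlier results of these data known. They cover the kinases and cyclins of mitotic entry, the chromosomal passenger complex, the spindle checkpoint, separase and its inhibitor, the kinetochore, spindle motors, cytokinesis and chromosome structure. All 45 passed the filter on low values, at least 1 RPKM in at least 2 libraries. RPKM divides a gene's reads by its length and by the depth of its library.

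The study compared germ cells that lack Jmjd1a and Jmjd1b, which are H3K9 demethylases of histone tails, found in the files as Kdm3a and Kdm3b. Its 14 libraries form 7 groups of 2. On postnatal day 7 (P7) these were DKO (Vasa-Cre; Jmjd1a-/-; Jmjd1b-/-) and Ctrl (Vasa-Cre; Jmjd1a-/+; Jmjd1b-/+). On postnatal day 3 (P3) they were DKO and Ctrl of those genotypes, Jmjd1aKO (Vasa-Cre; Jmjd1a-/-; Jmjd1b-/+), Jmjd1bKO (Vasa-Cre; Jmjd1a-/+; Jmjd1b-/-) and WT, labelled as wild type. The controls therefore carry the Cre driver and have 1 copy each of Jmjd1a and Jmjd1b. The mice were C57BL/6, and Vasa-Cre drives deletion in the germ line. No label mentions sorting, and none tells if 2 replicates are 2 animals, so p-values here reflect the spread among these samples alone, which may be technical.

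In dividing cells, cyclin A2 and the B cyclins activate Cdk1 as the cell leaves G2, Aurora and Polo kinases build the spindle, and the spindle checkpoint holds back the anaphase-promoting complex until kinetochores are attached. Transcripts of these genes peak in G2 and mitosis and are low in resting cells, so their level in a bulk sample follows both the share of dividing cells and the RNA made in each. In the mouse, male germ cells stop dividing before birth, resume in the first days after birth and become spermatogonia. At many such genes the promoter carries a CCAAT box, bound by NF-Y, and a cell cycle homology region (CHR), at which the DREAM complex represses in resting cells and complexes with Mybl2 and Foxm1 activate in G2.

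Estimated depth, in mega-fragments (M), was 21.8 to 22.8 for the P7 DKO libraries and 21.6 to 24.7 for P7 Ctrl. The P3 DKO libraries had 46.1 to 50.9, those of P3 Jmjd1aKO and P3 Jmjd1bKO 26.5 to 43.6, those of P3 Ctrl 39.7 to 44.4 and those of P3 WT 13.6 to 15.0. Germ cell transcripts were found in all libraries, which does not measure purity. The germ cell marker Ddx4 stood between 169 and 307 RPKM, and the summed level of 7 germ cell markers lay between 1213 and 1684 RPKM. Replicate 2 of P3 Jmjd1aKO and of P3 Jmjd1bKO stood apart, with summed levels of 10 Sertoli cell markers of 730 and 902 RPKM, against 41.8 to 165 RPKM in the other 12 libraries. In those 2 libraries Leydig and stromal markers were raised as well, and germ cell markers had their lowest sums, 1244 and 1213 RPKM. No marker of any list was at 0 in all libraries. Kdm3a stood at 8.97 and 7.59 RPKM in P7 DKO, against 27.2 and 27.1 RPKM in P7 Ctrl, and at 12.1 and 14.3 RPKM in P3 DKO, against 28.4 and 26.3 RPKM in P3 Ctrl, and Kdm3b at 6.49 and 6.73 RPKM in P7 DKO, against 17.3 and 16.1 RPKM in P7 Ctrl. In P3 DKO Kdm3b stood at 4.26 and 4.48 RPKM, against 10.2 and 13.5 RPKM in P3 Ctrl, so both targeted genes were lower in DKO and reads of each remained. P3 WT had 44.1 and 45.2 RPKM of Kdm3a and 26.9 and 26.9 RPKM of Kdm3b. In the single knockouts Kdm3a was 9.83 and 9.84 RPKM in P3 Jmjd1aKO, and Kdm3b 4.72 and 7.51 RPKM in P3 Jmjd1bKO.

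Promoter windows of 300 bases, 250 before to 50 after the annotated start, were matched in RefSeq (GRCm38.p6) for 37 of the 45 genes. The CHR letters TTTGAA, searched on both strands, were in a window of 29 of the 37 genes (78.4%), against 20.2% of the 27025 genes with a window. CCAAT, searched on both strands, was in 28 of 37 (75.7%), against 41.1% of all genes. The variant TTCGAA, which reads the same on both strands, was in 3 of 37 (8.11%), against 1.80%. A CCAAT together with TTTGAA or TTCGAA was in 26 of 37 (70.3%), against 8.61% of all genes. A match is a description of the letters and not a binding site.

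The windows below are those matched among the genes that passed the tests of P3 DKO (Ccnb1, Cdca8, Ndc80 and Spc25), of P7 DKO (Smc2 and Ncapd2) and of P3 Ctrl against P3 WT (Pttg1). Ccna2 and Smc4, which also passed, had no matched window. Capitals mark CCAAT and TTTGAA, or ATTGG and TTCAAA where the match is on the other strand. They lie at chr13:100786437-100786736 (minus strand, Ccnb1), chr4:124936868-124937167 (minus, Cdca8), chr17:71526808-71527107 (minus, Ndc80), chr2:69206164-69206463 (minus, Spc25), chr4:52438971-52439270 (plus, Smc2), chr6:125191537-125191836 (minus, Ncapd2) and chr11:43425932-43426231 (minus, Pttg1) of GRCm38.p6, each 5′ to 3′ on its gene's strand.
Ccnb1: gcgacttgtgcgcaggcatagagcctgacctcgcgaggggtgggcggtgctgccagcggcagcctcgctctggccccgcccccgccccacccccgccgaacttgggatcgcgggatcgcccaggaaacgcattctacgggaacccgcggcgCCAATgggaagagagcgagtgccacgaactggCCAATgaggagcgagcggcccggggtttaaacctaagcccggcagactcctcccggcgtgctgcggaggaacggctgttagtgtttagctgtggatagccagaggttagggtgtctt
Cdca8: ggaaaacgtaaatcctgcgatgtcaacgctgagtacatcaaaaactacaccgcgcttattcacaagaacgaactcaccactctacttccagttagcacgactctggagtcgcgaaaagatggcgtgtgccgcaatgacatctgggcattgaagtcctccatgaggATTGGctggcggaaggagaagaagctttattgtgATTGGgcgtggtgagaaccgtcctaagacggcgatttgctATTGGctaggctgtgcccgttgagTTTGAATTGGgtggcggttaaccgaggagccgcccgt
Ndc80: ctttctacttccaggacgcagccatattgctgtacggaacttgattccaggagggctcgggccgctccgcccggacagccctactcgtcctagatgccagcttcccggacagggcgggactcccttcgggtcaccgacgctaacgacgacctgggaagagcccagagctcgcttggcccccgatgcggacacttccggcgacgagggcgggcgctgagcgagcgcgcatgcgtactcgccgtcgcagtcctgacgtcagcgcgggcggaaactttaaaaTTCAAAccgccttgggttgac
Spc25: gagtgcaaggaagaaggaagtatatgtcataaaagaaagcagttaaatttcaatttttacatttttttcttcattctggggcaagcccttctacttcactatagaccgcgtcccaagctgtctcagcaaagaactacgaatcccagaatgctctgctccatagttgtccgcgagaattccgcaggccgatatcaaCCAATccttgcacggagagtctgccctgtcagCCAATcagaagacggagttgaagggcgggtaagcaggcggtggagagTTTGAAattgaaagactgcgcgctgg
Smc2: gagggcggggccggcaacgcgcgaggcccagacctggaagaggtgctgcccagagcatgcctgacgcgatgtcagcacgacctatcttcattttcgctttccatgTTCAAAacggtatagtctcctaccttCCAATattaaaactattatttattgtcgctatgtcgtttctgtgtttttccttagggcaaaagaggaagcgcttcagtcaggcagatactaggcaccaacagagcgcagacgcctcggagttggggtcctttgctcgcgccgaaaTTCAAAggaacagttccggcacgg
Ncapd2: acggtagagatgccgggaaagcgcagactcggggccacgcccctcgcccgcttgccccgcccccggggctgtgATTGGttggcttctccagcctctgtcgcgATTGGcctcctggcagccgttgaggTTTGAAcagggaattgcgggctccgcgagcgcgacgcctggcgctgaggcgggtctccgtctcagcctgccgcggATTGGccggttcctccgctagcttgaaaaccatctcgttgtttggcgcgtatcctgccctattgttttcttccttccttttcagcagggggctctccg
Pttg1: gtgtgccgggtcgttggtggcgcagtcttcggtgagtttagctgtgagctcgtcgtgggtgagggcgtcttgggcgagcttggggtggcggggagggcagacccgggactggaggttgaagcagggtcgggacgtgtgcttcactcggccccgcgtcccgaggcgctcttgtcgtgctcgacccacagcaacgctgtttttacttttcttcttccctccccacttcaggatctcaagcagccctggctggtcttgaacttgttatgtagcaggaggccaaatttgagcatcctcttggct
Cdca8 had 4 CCAAT boxes and 1 TTTGAA, which shares its last base with the nearest CCAAT box, and Spc25 had 2 and 1. Ncapd2 had 3 CCAAT boxes and 1 TTTGAA, Smc2 had 1 and 2, and Ndc80 had 1 TTTGAA alone. Ccnb1 had 2 CCAAT boxes and no match to either CHR form, and Pttg1 had no match to any of these letters in this window. The windows of Cdca8 and Pttg1 lie wholly within the spans of these genes in GENCODE M21 (124918465 to 124939311 and 43420250 to 43426251). The windows of Kif2c and Kif4, which count in the shares above, also lie wholly within the spans of their genes. Bases before the GENCODE starts of Cdca8, Pttg1, Kif2c and Kif4 were therefore not searched.

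Levels differed among the genes by about the span from Cdc25c, the phosphatase that activates Cdk1, with a mean of 10.6 RPKM over the 14 libraries, to Cdca8, which encodes the passenger protein borealin, with 124 RPKM. RPKM is scaled to length, so genes can be set side by side on it. The highest of each role were Ccnb1 (cyclin B1) at 113 RPKM, Cdca8 at 124 RPKM, Cdc20 (activator of the anaphase-promoting complex) at 91.0 RPKM, Pttg1 (securin, the inhibitor of separase) at 95.3 RPKM, Cenpa (the centromeric histone H3 variant) at 118 RPKM, Kif22 (a chromosome-arm kinesin) at 49.1 RPKM, Kif20a (a kinesin of the central spindle) at 58.2 RPKM and Top2a (topoisomerase II alpha) at 119 RPKM. At the low end Hmmr, a spindle assembly protein, averaged 11.2 RPKM and Kif4, a chromokinesin, 15.9 RPKM.

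Across groups most of the genes followed a common order. P3 WT was the highest group for 30 of the 45 genes, P7 DKO for 8, P7 Ctrl for 5 and P3 Jmjd1bKO for 2. P3 DKO was the lowest group for 37 genes, P3 Jmjd1aKO for 6, and P3 Ctrl and P3 WT for 1 each. The median RPKM of the 45 genes was 46.0 and 44.3 in the P7 DKO libraries, 48.6 and 48.8 in P7 Ctrl, 24.8 and 22.7 in P3 DKO, 24.0 and 36.3 in P3 Jmjd1aKO, 35.6 and 50.5 in P3 Jmjd1bKO, 29.2 and 45.9 in P3 Ctrl, and 63.5 and 58.7 in P3 WT. The P7 DKO and P7 Ctrl values lie close together, and those of P3 Jmjd1aKO, P3 Jmjd1bKO and P3 Ctrl overlap.

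Replicates of 3 of the P3 groups differed in these genes as a whole. In P3 Ctrl all 45 genes were higher in replicate 2 than in replicate 1, with a median log2 difference of 0.43, while the median over all tested genes was -0.03. In P3 Jmjd1aKO 45 of 45 and in P3 Jmjd1bKO 44 of 45 genes were higher in replicate 2, with medians of 0.44 and 0.42. In P3 DKO 14, in P3 WT 23, in P7 Ctrl 26 and in P7 DKO 13 of the 45 were higher in replicate 2, with medians between -0.16 and 0.01. The spread between the P3 Ctrl libraries therefore enters each comparison that uses them, and those comparisons are not independent of each other. Values without each are given beside the results.

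**Figure D1:**
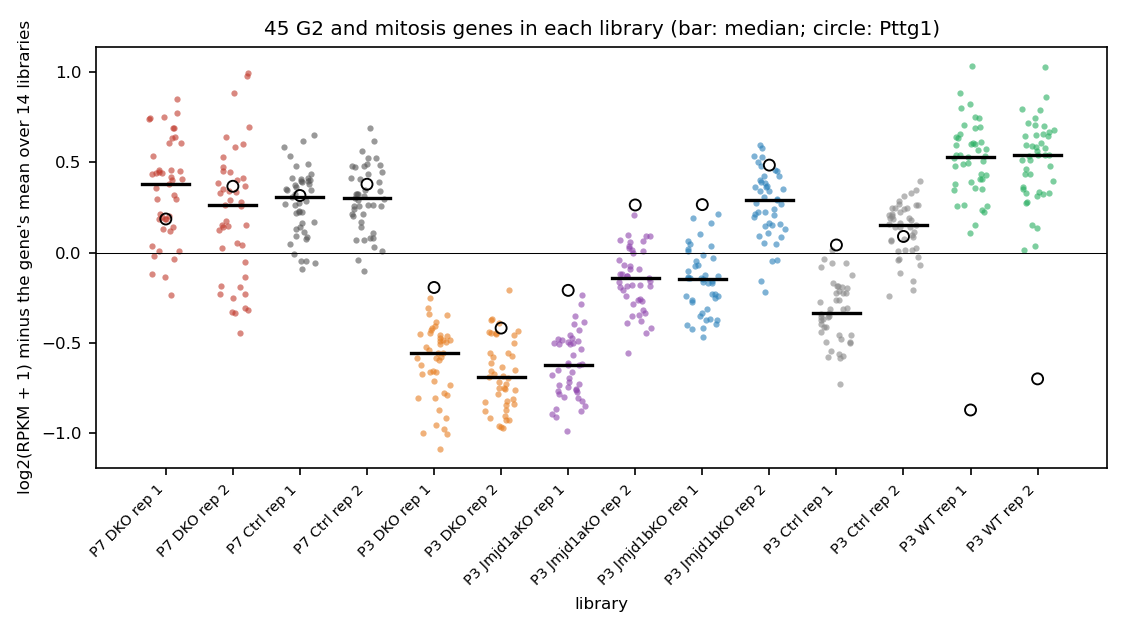
Each point is 1 of the 45 G2 and mitosis genes in 1 library, as log2(RPKM + 1) minus the gene's mean over the 14 libraries, with the median as a bar and Pttg1 as an open circle. The P3 DKO libraries lie lowest with P3 Jmjd1aKO replicate 1, the P3 WT libraries lie highest, and Pttg1 in P3 WT lies far below the other genes.

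On day 3 the median change in DKO relative to Ctrl germ cells was negative in all 8 roles, and 3 of the roles held genes that passed the test. Of 45 genes, 5 fell, none was higher and 40 did not pass (limma on log2(RPKM + 1), Benjamini-Hochberg adjusted p under 0.05 over all 14772 tested genes). Among all tested genes 2.29% fell, 2.18% rose and 4.47% passed in either direction. The median log2 change of the 45 was -0.57, against 0.01 over all tested genes, and 44 of the 45 changes were negative. Both DKO libraries lay below both Ctrl libraries for 38 of the 45, against 27.9% of all tested genes, and above them for none, against 30.8%. In bulk samples fewer dividing cells and less RNA per cell cannot be told apart.

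Among genes of mitotic entry, Ccna2 (chromosome 3, 36564865 to 36572150, GRCm38), cyclin A2, stood at 52.2 and 45.1 RPKM in P3 DKO, against 73.1 and 100 RPKM in P3 Ctrl. It fell by 0.81 ± 0.18 on the log2 scale (SE, n = 2 each, limma adjusted p = 0.0399). Ccnb1 (chromosome 13, 100778650 to 100786570) stood at 77.1 and 56.9 RPKM in P3 DKO, against 96.1 and 120 RPKM in P3 Ctrl (log2 change -0.69 ± 0.16, limma adjusted p = 0.0465). The groups did not overlap for either cyclin. Plk1, the Polo kinase of mitotic entry, had the lowest change of the 45, -0.88 ± 0.35, with 17.4 and 19.0 RPKM in P3 DKO and 24.9 and 47.3 RPKM in P3 Ctrl, and did not pass (limma adjusted p = 0.161). Its Ctrl libraries differ from each other by more than the lower of them differs from DKO. Cdk1, the kinase these cyclins activate, had a change of -0.76 ± 0.37 (limma adjusted p = 0.247). Cdc25c was the only gene of the 45 with a positive change, 0.08 ± 0.21, and its libraries overlapped.

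In the chromosomal passenger complex, which corrects kinetochore attachments, Cdca8 (chromosome 4, 124918465 to 124939311) stood at 93.0 and 92.7 RPKM in P3 DKO, against 123 and 145 RPKM in P3 Ctrl (log2 change -0.52 ± 0.11, limma adjusted p = 0.0373). Its partners Aurkb, Birc5 and Incenp had changes of -0.85, -0.78 and -0.69 and did not pass. At the kinetochore 2 of 7 genes fell, both of the Ndc80 complex that holds the microtubule. Ndc80 (chromosome 17, 71496100 to 71526857) stood at 27.98 and 27.4 RPKM in P3 DKO, against 38.2 and 41.4 RPKM in P3 Ctrl (log2 change -0.51 ± 0.12, limma adjusted p = 0.0442). Spc25 (chromosome 2, 69193895 to 69206194) stood at 55.6 and 44.7 RPKM in P3 DKO, against 66.2 and 73.4 RPKM in P3 Ctrl (log2 change -0.47 ± 0.11, limma adjusted p = 0.0432). The other subunits, Nuf2 and Spc24, had larger changes with wider errors, -0.86 ± 0.22 and -0.83 ± 0.30, and did not pass. None of the 6 checkpoint and anaphase-promoting complex genes, 2 genes of separase and securin, 7 spindle genes, 6 cytokinesis genes or 6 chromosome structure genes passed, and the median changes of these roles lay between -0.60 and -0.34.

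Of 128 other genes of the same pathways, listed by role, 126 were tested. In P3 DKO 10 fell, 1 rose and 115 did not pass, with a median log2 change of -0.31. The activator genes Foxm1 and Mybl2 were among those that fell. Foxm1 stood at 25.4 and 25.8 RPKM in P3 DKO, against 38.3 and 46.2 RPKM in P3 Ctrl (log2 change -0.70, limma adjusted p = 0.0327), and Mybl2 at 22.2 and 20.6 RPKM, against 34.7 and 38.6 RPKM (-0.75, limma adjusted p = 0.0121). Their groups did not overlap. The mitotic kinase gene Melk (-0.84), the kinetochore genes Dsn1 (-0.72) and Pmf1 (-0.55) and the cohesin protector Cdca5, or sororin (-0.66), fell as well. Cdc25b, a second phosphatase of Cdk1, rose by 0.55 on the log2 scale, with 20.6 and 19.7 RPKM in P3 DKO and 14.5 and 12.4 RPKM in P3 Ctrl.

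The 5 calls of P3 DKO depend on each library: 0 genes passed without P3 Ctrl replicate 1, P3 Ctrl replicate 2 or P3 DKO replicate 2, and 1 passed without P3 DKO replicate 1. The median change was -0.76 without P3 Ctrl replicate 1 and -0.36 without P3 Ctrl replicate 2. Leaving out the 2 libraries with Sertoli transcripts, which belong to neither group and enter only through the shared spread, gave 23 lower genes with the 5 among them. None passed with quantile normalization or in a fit of these groups alone, and 1 passed with a pseudocount of 0.1. The median change was -0.43 with quantile normalization. Sertoli markers summed to 73.9 to 80.1 RPKM in P3 DKO and 41.8 to 55.0 RPKM in P3 Ctrl. Stromal markers summed to 21.4 to 22.0 RPKM in P3 DKO and 11.4 to 13.3 RPKM in P3 Ctrl. For leukocyte markers the sums were 5.66 to 7.17 RPKM in P3 DKO and 12.32 to 15.999 RPKM in P3 Ctrl. The part of these markers in the result was not tested.

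On day 7 the mitotic genes as a whole lay on both sides of their control levels in DKO. In the fit over all 14 libraries the genes that passed were subunits of condensin, the ring complex that compacts mitotic chromosomes. Under some other settings genes outside condensin passed too. Of 45 genes 2 rose, 1 fell and 42 did not pass, while among all tested genes 17.4% rose and 16.1% fell. The median log2 change was -0.07, against 0.02 over all tested genes, with 19 positive and 26 negative changes. With quantile normalization the median was -0.18. The share of the 45 that passed lies below that of all tested genes. The libraries did not overlap for 15 genes higher in DKO and 15 lower, where 38.1% and 35.4% of all tested genes were so placed.

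**Figure D2:**
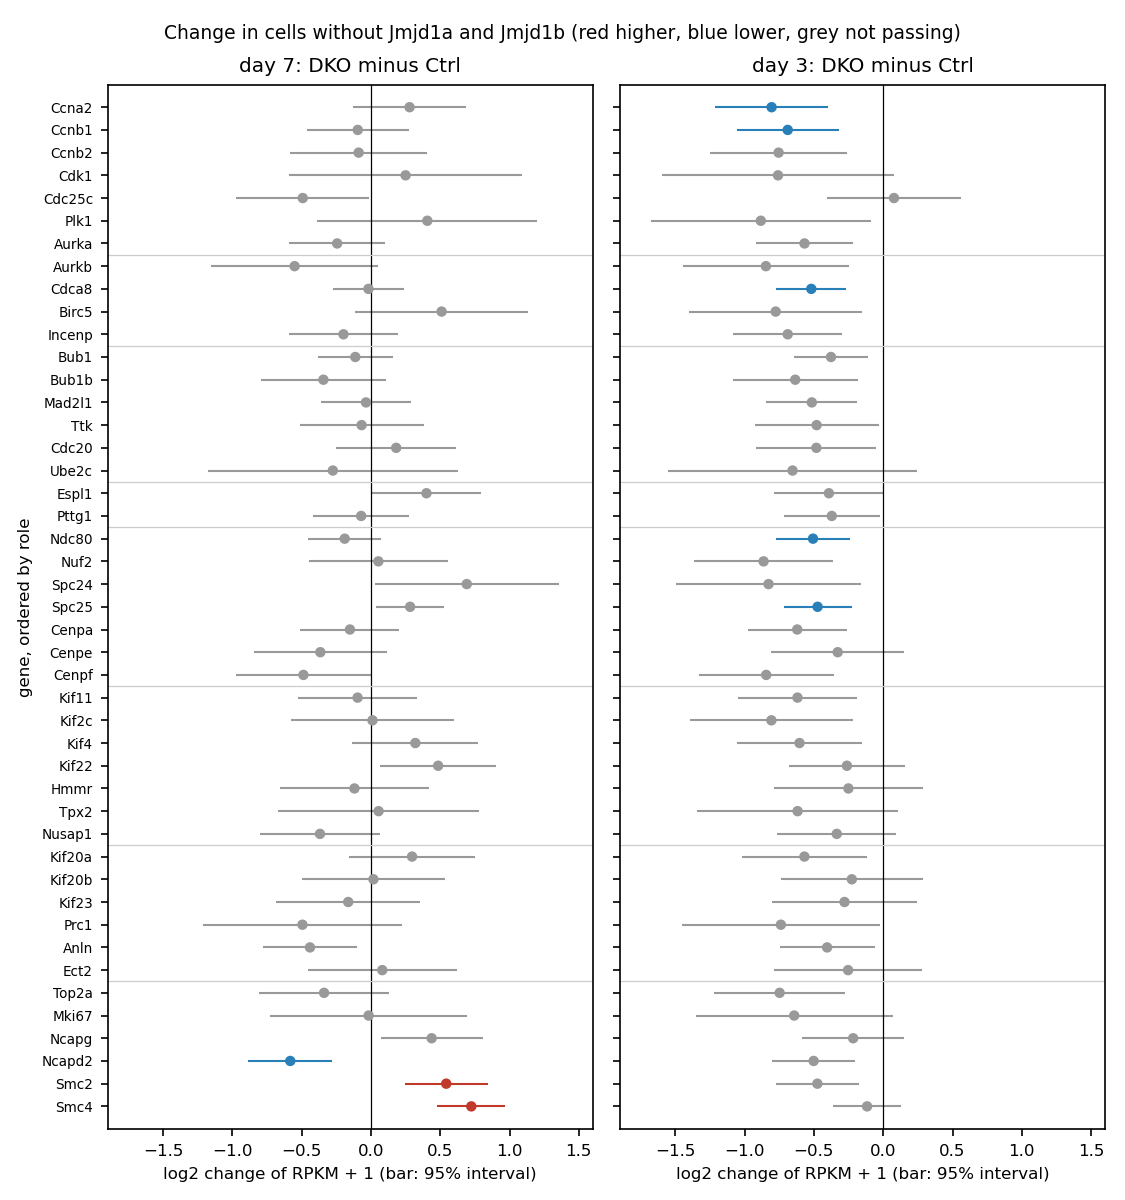
Points are log2 changes of RPKM + 1 in DKO relative to Ctrl for each of the 45 genes, ordered by role, on day 7 (left) and day 3 (right), with bars for the 95% interval. On day 3 all but Cdc25c lie left of 0 and 5 pass the test (blue), while on day 7 the points lie on both sides of 0 and Smc2 and Smc4 (red) and Ncapd2 (blue) pass.

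Smc4 (chromosome 3, 69004738 to 69034623), an ATPase subunit of both condensin complexes, stood at 126 and 129 RPKM in P7 DKO, against 75.2 and 78.0 RPKM in P7 Ctrl. It rose by 0.72 ± 0.11 on the log2 scale (n = 2 each, limma adjusted p = 0.00104). Its partner Smc2 (chromosome 4, 52439243 to 52488260) stood at 39.5 and 35.2 RPKM in P7 DKO, against 24.9 and 25.6 RPKM in P7 Ctrl (log2 change 0.54 ± 0.13, limma adjusted p = 0.012). For each, both DKO libraries lay above both Ctrl libraries. Ncapd2 (chromosome 6, 125168007 to 125191701), a regulatory subunit of condensin I, stood at 85.5 and 73.6 RPKM in P7 DKO, against 118 and 121 RPKM in P7 Ctrl (log2 change -0.58 ± 0.14, limma adjusted p = 0.00889). The groups did not overlap for this gene either. Exons of Ncapd2 overlap Scarna10 and Gm28967 on the same strand in GENCODE M21, so its reads may be shared. Ncapg, another regulatory subunit of condensin I, stood at 34.98 and 40.9 RPKM in P7 DKO, against 27.01 and 28.3 RPKM in P7 Ctrl, and did not pass (0.44 ± 0.16, limma adjusted p = 0.0665).

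The remaining condensin subunits are in the list of other pathway genes and split in the same test. Ncaph, the kleisin of condensin I, stood at 45.1 and 36.8 RPKM in P7 DKO, against 61.9 and 66.0 RPKM in P7 Ctrl (log2 change -0.64, limma adjusted p = 0.0314). Ncapd3 of condensin II stood at 28.1 and 24.2 RPKM in P7 DKO, against 52.0 and 52.2 RPKM in P7 Ctrl (-0.97, limma adjusted p = 0.00135). Ncaph2 of condensin II stood at 83.9 and 80.8 RPKM in P7 DKO, against 47.6 and 50.6 RPKM in P7 Ctrl (0.74, limma adjusted p = 0.00139), and Ncapg2 at 27.9 and 24.2 RPKM, against 18.6 and 19.6 RPKM (0.42, limma adjusted p = 0.0302). Of the 8 condensin genes 4 thus rose, 3 fell and 1 did not pass, in a comparison in which 33.5% of all tested genes passed. Ncaph, Ncaph2 and Ncapg2 were chosen for naming after their values were seen.

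**Figure D3:**
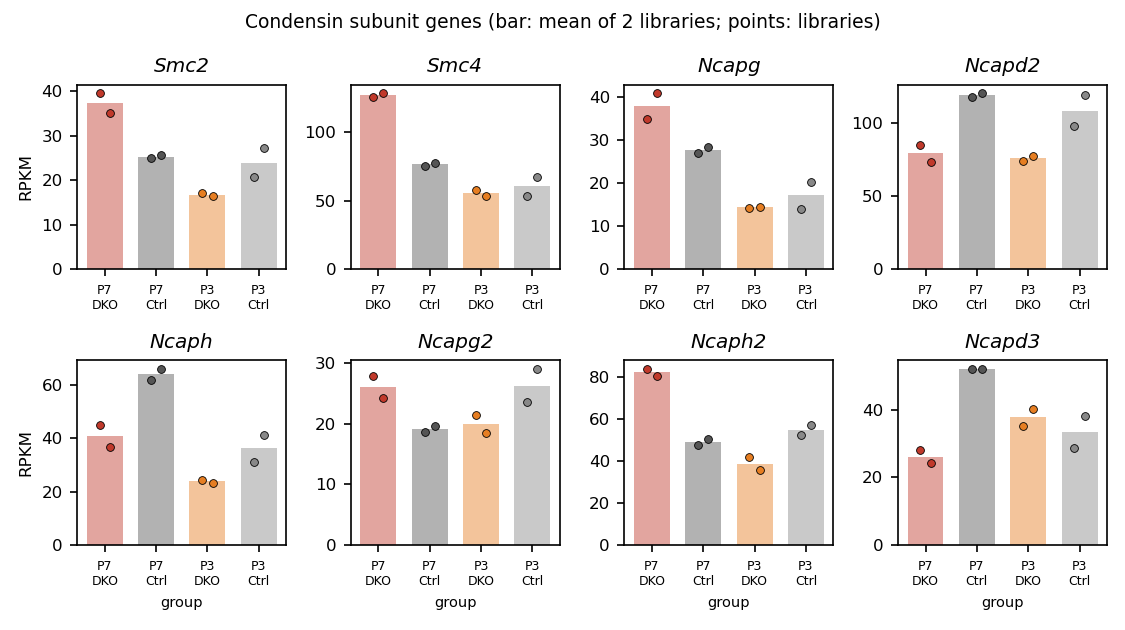
Bars show the mean RPKM of 2 libraries and points the libraries, for the 8 condensin subunit genes in P7 DKO, P7 Ctrl, P3 DKO and P3 Ctrl, each on its own axis from 0. In P7 DKO Smc2, Smc4, Ncapg, Ncapg2 and Ncaph2 lie above P7 Ctrl, and Ncapd2, Ncaph and Ncapd3 lie below it. All but Ncapg passed the test on day 7.

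In the fit over all 14 libraries no other role of the 45 held a gene that passed on day 7. In a fit of these groups alone 13 of the 45 passed (9 higher, 4 lower), and 8 did with the replicate number as a block. These counts exceed the condensin genes of the 45, Smc2, Smc4, Ncapg and Ncapd2, so genes outside condensin passed there. The values below are from the fit over all 14 libraries. Spc24 had a change of 0.69 ± 0.30 with 37.6 and 44.6 RPKM in P7 DKO and 23.7 and 26.4 RPKM in P7 Ctrl (limma adjusted p = 0.102), and Aurkb a change of -0.55 ± 0.27 with 37.6 and 33.4 RPKM in P7 DKO and 50.8 and 54.0 RPKM in P7 Ctrl (limma adjusted p = 0.145). Their libraries did not overlap, though neither difference passed. The cyclins Ccna2 and Ccnb1, lower on day 3, had changes of 0.28 ± 0.18 and -0.10 ± 0.16. Of the 126 other pathway genes tested 23 rose, 17 fell and 86 did not pass, with a median of 0.01. The largest changes were in the germline B cyclin Ccnb3 (1.74), the Cdc20 paralog Cdc20b (-1.18), E2f2 (1.08), Ncapd3, the anaphase-promoting complex subunit Anapc13 (0.94) and Cdc25b (-0.93), which on day 3 had risen. Foxm1 and Mybl2 stood at 43.4 and 38.4 RPKM and at 38.3 and 35.3 RPKM in P7 DKO, against 44.5 and 43.8 RPKM and 35.6 and 35.1 RPKM in P7 Ctrl, and did not pass.

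The call of Smc4 held without each of the 4 libraries. That of Smc2 was lost without P7 Ctrl replicate 1, P7 Ctrl replicate 2 or P7 DKO replicate 1, and that of Ncapd2 without P7 Ctrl replicate 2 or P7 DKO replicate 2. The count was 1 without P7 Ctrl replicate 2. Endothelial markers summed to 1.45 to 2.31 RPKM in P7 DKO and 9.23 to 9.31 RPKM in P7 Ctrl, and stromal markers to 6.19 to 6.84 RPKM and 19.0 to 19.1 RPKM, and their part in these results was not tested.

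In control cells the mitotic genes stood somewhat higher on day 7 than on day 3. Of 45 genes 7 rose, none fell and 38 did not pass, against 9.94% of all tested genes that rose and 13.4% that fell. The median log2 change was 0.36, against -0.01 over all tested genes, and 42 of 45 changes were positive. The P7 libraries lay above both P3 libraries for 29 of 45 genes, against 35.6% of all tested genes. They lay below both for 1 of 45, against 38.6%.

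The 7 genes that rose belong to several roles. Hmmr (chromosome 11, 40701395 to 40733422) stood at 16.98 and 17.4 RPKM in P7 Ctrl, against 6.68 and 8.67 RPKM in P3 Ctrl (log2 change 1.08 ± 0.24, limma adjusted p = 0.0138). Cdc25c (chromosome 18, 34732993 to 34751533) stood at 16.3 and 16.3 RPKM in P7 Ctrl, against 6.64 and 8.76 RPKM in P3 Ctrl (1.002 ± 0.21, limma adjusted p = 0.012). Ndc80 stood at 65.4 and 65.0 RPKM in P7 Ctrl, against 38.2 and 41.4 RPKM in P3 Ctrl (0.70 ± 0.12, limma adjusted p = 0.00542). In each of these the P7 Ctrl libraries differ from each other by far less than from P3 Ctrl. Cenpe, the kinetochore motor, rose by 0.71 on the log2 scale, Nusap1, a spindle microtubule protein, by 0.70, the cytokinesis kinesin Kif20b by 0.72 and Ncapg by 0.68. Cdca8 had the lowest change, -0.23 ± 0.11, and did not pass.

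Of the 126 other pathway genes tested 26 rose, 6 fell and 94 did not pass, with a median of 0.25. The kinetochore list held 11 of the genes that rose, among 34, with Ska2 (1.32), Cenpq (0.89) and Spdl1 (0.89) named by size. Troap (0.98) and Smc1a (0.89) rose and Ccnb3 fell (-1.12). Foxm1 and Mybl2 did not pass. Without P3 Ctrl replicate 1, the lower of the control libraries, 1 member passed and the median was 0.15, and without P3 Ctrl replicate 2 there were 11 and the median was 0.58. Leaving out either P7 Ctrl library left 1. Sertoli markers summed to 115 to 127 RPKM in P7 Ctrl and 41.8 to 55.0 RPKM in P3 Ctrl, endothelial markers to 9.23 to 9.31 RPKM in P7 Ctrl and 16.2 to 27.3 RPKM in P3 Ctrl, and leukocyte markers to 5.26 to 6.31 RPKM in P7 Ctrl and 12.32 to 15.999 RPKM in P3 Ctrl. Depth was 21.6 to 24.7 M in P7 Ctrl and 39.7 to 44.4 M in P3 Ctrl, and the part of markers and depth was not tested.

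Without either demethylase the rise with age was wide. In DKO cells 38 of the 45 genes were higher on day 7 than on day 3, none was lower and 7 did not pass, against 27.8% of all tested genes that rose and 30.5% that fell. The median log2 change was 0.89, against -0.03 over all tested genes, and all 45 changes were positive. With quantile normalization the median was 0.67. Both P7 DKO libraries lay above both P3 DKO libraries for 44 of 45 genes, all but Ncapd2, where 38.7% of all tested genes did. Every gene of the kinetochore, spindle, and separase and securin roles passed, with 5 of 7 in mitotic entry, 3 of 4 in the passenger complex, 5 of 6 in the checkpoint, 4 of 6 in cytokinesis and 5 of 6 in chromosome structure.

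The largest rise was that of Spc24 (chromosome 9, 21755442 to 21760303), the kinetochore partner of Spc25. It stood at 37.6 and 44.6 RPKM in P7 DKO, against 9.92 and 11.9 RPKM in P3 DKO (log2 change 1.82 ± 0.30, limma adjusted p = 0.000705). Plk1 stood at 60.7 and 45.5 RPKM in P7 DKO, against 17.4 and 19.0 RPKM in P3 DKO (1.48 ± 0.35, limma adjusted p = 0.00539). Kif4 stood at 23.9 and 24.8 RPKM in P7 DKO, against 8.12 and 8.02 RPKM in P3 DKO (1.48 ± 0.20, limma adjusted p = 0.000284). In these 3 genes the lowest P7 library is above the highest P3 library by more than the replicates differ. The next by size were Nuf2 (1.45), Birc5, or survivin (1.44), Cdk1 (1.38), Ncapg (1.33), the spindle assembly factor Tpx2 (1.22), Hmmr (1.21), Cdc20 (1.20), the ubiquitin-conjugating enzyme Ube2c (1.18) and Smc4 (1.18). The 7 genes that did not pass were Cdc25c (0.43), Aurka (0.26), Cdca8 (0.28), Bub1b (0.50), Prc1 (0.73), Anln (0.29) and Ncapd2 (0.06).

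Ncapd2 was at 85.5 and 73.6 RPKM in P7 DKO, against 74.5 and 77.8 RPKM in P3 DKO, and is the one gene of the 45 whose libraries overlapped between the ages. Of the 126 other pathway genes tested 81 rose, 6 fell and 39 did not pass, with a median of 0.64, and 29 of the 34 other kinetochore genes were among those that rose. The largest changes were those of the kinetochore genes Zwilch (1.91), Ska2 (1.88), Cenpk (1.53) and Oip5 (1.47), of Cdc25b (-1.74) and of the spindle kinesin Kif15 (1.54). Foxm1 and Mybl2 stood at 43.4 and 38.4 RPKM and at 38.3 and 35.3 RPKM in P7 DKO, against 25.4 and 25.8 RPKM and 22.2 and 20.6 RPKM in P3 DKO, and both rose (0.65 and 0.75). The count of members stayed between 28 and 35 when a library was left out. Endothelial markers summed to 1.45 to 2.31 RPKM in P7 DKO and 20.4 to 21.1 RPKM in P3 DKO, and stromal markers to 6.19 to 6.84 RPKM in P7 DKO and 21.4 to 22.0 RPKM in P3 DKO. Sertoli markers summed to 92.9 to 165 RPKM in P7 DKO and 73.9 to 80.1 RPKM in P3 DKO. The part of these markers and of depth was not tested. Depth was 21.8 to 22.8 M in P7 DKO and 46.1 to 50.9 M in P3 DKO, and 58.3% of all tested genes passed in either direction.

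**Figure D4:**
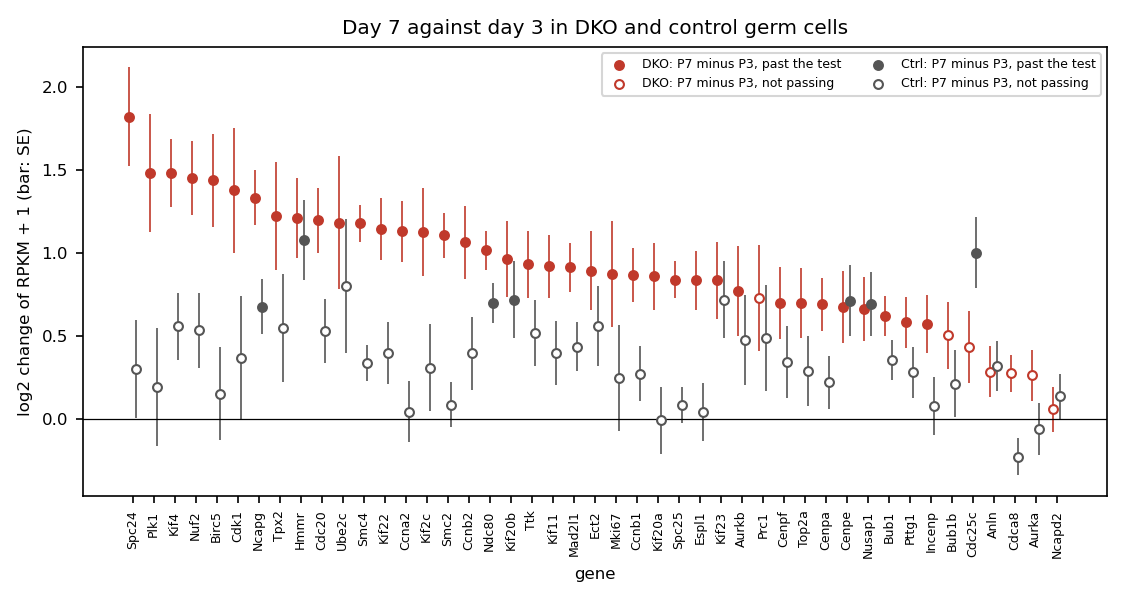
Points are log2 changes of RPKM + 1 on P7 relative to P3 in DKO (red) and Ctrl (grey) cells for the 45 genes, ordered by the DKO change, with SE bars, filled where the gene passed. Most DKO points lie above the Ctrl point of the same gene, from Spc24 at 1.82 in DKO and 0.30 in Ctrl, and Cdc25c is a gene with the Ctrl point higher (0.43 in DKO, 1.002 in Ctrl).

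Whether the age change differs between genotypes was tested as the DKO change on P7 minus that on P3, which uses the same 8 libraries as the comparisons above and shares their controls. For 9 of the 45 genes the difference was positive and passed, for none was it negative and passed, and 36 did not pass, against 12.2% of all tested genes with a positive difference and 10.7% with a negative one. The median difference was 0.49, against -0.03 over all tested genes, and 40 of 45 were positive. With quantile normalization the median difference was 0.26. The RPKM of a library summed to 620451 and 690468 in P7 DKO and to 563809 and 558264 in P7 Ctrl. On day 3 the sums were 464450 and 458653 in P3 DKO and 517597 and 544513 in P3 Ctrl. The part of these sums in the difference was not tested. The 9 genes were Spc24, Birc5, Ccna2, Smc2, Kif4, Smc4, Espl1 (separase, which cuts cohesin at anaphase), Spc25 and Cdca8.

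Spc24 had the largest difference, 1.52 ± 0.42 (limma adjusted p = 0.0285), from a change of 0.69 on day 7 and -0.83 on day 3. Ccna2 differed by 1.08 ± 0.26 (limma adjusted p = 0.0157) and Smc2 by 1.02 ± 0.19 (limma adjusted p = 0.00556). In these 3 the DKO change was positive on day 7 and negative on day 3. Cdca8 had the smallest of the 9, 0.50 ± 0.16, from -0.02 on day 7 and -0.52 on day 3. Cdc25c had the lowest difference of the 45, -0.57 ± 0.30, and did not pass. Of the 126 other pathway genes tested 32 had a positive and 5 a negative difference that passed, with a median of 0.32. The named ones by size were Ccnb3 (1.54), Cenpm (1.52), Cdc25b (-1.48), Cdc20b (-1.35), Kif15 (1.23) and Ncaph2 (1.22), and Mybl2 also passed (0.80). The count of members was 14 without P3 Ctrl replicate 1 and 3 without P3 Ctrl replicate 2, P3 DKO replicate 2, P7 Ctrl replicate 1 or P7 Ctrl replicate 2. It was 5 without P3 DKO replicate 1 or P7 DKO replicate 1, and 4 without P7 DKO replicate 2.

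With loss of a single demethylase on day 3 no gene of the 45 passed. In P3 Jmjd1aKO against P3 Ctrl 0 passed in limma, 12 had an unadjusted p under 0.05, all lower, against 1484 of the 14772 tested genes in either direction, and 5 of all tested genes passed (0.0338%), with 0.0135% higher and 0.0203% lower. The median log2 change was -0.32, against -0.0031 over all tested genes, 43 of 45 changes were negative, and 13 genes had both knockout libraries below both controls, against 18.1% of all tested genes. Spc25 stood at 48.9 and 50.3 RPKM in P3 Jmjd1aKO, against 66.2 and 73.4 RPKM in P3 Ctrl (-0.48 ± 0.11, limma adjusted p = 0.264). Nuf2 had the lowest change, -0.56 ± 0.22, with 13.8 and 20.9 RPKM in P3 Jmjd1aKO and 20.7 and 31.4 RPKM in P3 Ctrl, and its groups overlapped. The median was -0.54 without P3 Jmjd1aKO replicate 2, the library with 730 RPKM of Sertoli markers, -0.06 without P3 Jmjd1aKO replicate 1, -0.55 without P3 Ctrl replicate 1 and -0.09 without P3 Ctrl replicate 2.

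In P3 Jmjd1bKO against P3 Ctrl 0 of the 45 passed in limma, 0 had an unadjusted p under 0.05, against 1.81% of all tested genes, and 3 of all tested genes passed (0.0203%), with 0.00677% higher and 0.0135% lower. The median log2 change was 0.16, against -0.01 over all tested genes, with 40 positive changes, and 3 genes had both knockout libraries above both controls, against 9.97% of all tested genes. Kif23, a motor of the central spindle, had the highest change, 0.39 ± 0.23, with 26.3 and 41.4 RPKM in P3 Jmjd1bKO and 22.4 and 27.8 RPKM in P3 Ctrl. Replicate 2 was the higher one in both groups, and the sign of the median changed with the library left out: it was -0.06 without P3 Jmjd1bKO replicate 2, the library with 902 RPKM of Sertoli markers, and -0.10 without P3 Ctrl replicate 1, but 0.38 without P3 Jmjd1bKO replicate 1 and 0.37 without P3 Ctrl replicate 2. None of the 126 other pathway genes tested passed in either single knockout, with medians of -0.17 in P3 Jmjd1aKO and 0.08 in P3 Jmjd1bKO. The replicates of each knockout and of the controls differ in these genes by more than the group medians do.

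The double heterozygotes, P3 Ctrl, had lower values than P3 WT for nearly all of the 45 genes, though 1 gene passed and it was higher. Both P3 Ctrl libraries lay below both P3 WT libraries for 44 of 45 genes, against 29.5% of all tested genes, with a median log2 change of -0.59, against 0.02. None of the 44 passed, and 0.298% of all tested genes fell. An unadjusted p under 0.05 was found for 36 of the 45 (35 lower, 1 higher), against 26.6% of all tested genes in either direction. Cenpf, a kinetochore protein of G2, stood at 26.3 and 35.8 RPKM in P3 Ctrl, against 64.2 and 64.1 RPKM in P3 WT (-1.04 ± 0.22, limma adjusted p = 0.0588). Top2a stood at 96.7 and 131 RPKM in P3 Ctrl, against 185 and 196 RPKM in P3 WT (-0.75 ± 0.21, limma adjusted p = 0.0835). The WT libraries agree closely with each other and the Ctrl libraries do not.

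Pttg1 (chromosome 11, 43420250 to 43426251) went the other way. It stood at 94.6 and 97.8 RPKM in P3 Ctrl, against 49.7 and 56.1 RPKM in P3 WT, and rose by 0.85 ± 0.15 on the log2 scale (n = 2 each, limma adjusted p = 0.0466, 0.406% of all tested genes higher). In the other 10 libraries it lay between 68.5 and 129 RPKM, above both WT libraries, so WT is the lowest group for Pttg1 while its target Espl1 was at 26.0 and 36.0 RPKM in P3 Ctrl and 45.8 and 44.4 RPKM in P3 WT. The call was lost when any 1 of the 4 libraries was left out, and without P3 Ctrl replicate 2 there were 3 lower genes. Leaving out the 2 libraries with Sertoli transcripts, which are in neither group, gave 28 lower genes and Pttg1 higher. The 126 other pathway genes tested had a median of -0.37. P3 Ctrl and P3 WT differ in copies of both Jmjd1a and Jmjd1b, and possibly in Cre, which the WT label does not mention, and these cannot be told apart. Sertoli markers summed to 41.8 to 55.0 RPKM in P3 Ctrl and 107 to 135 RPKM in P3 WT, and endothelial markers to 16.2 to 27.3 RPKM in P3 Ctrl and 8.03 to 10.4 RPKM in P3 WT. The groups also differ in depth (39.7 to 44.4 M for P3 Ctrl, 13.6 to 15.0 M for P3 WT), and the part of markers and depth was not tested.

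Exons of 12 of the 45 genes overlap a gene on the opposite strand in GENCODE M21, among them Ccna2 with Exosc9, Cdca8 with 9930104L06Rik, Nusap1 with Oip5 and Ncapg with Lcorl. The kit marks strand, but the use of strand in counting is not given in the sources used here, so reads of these pairs could be shared. Ccnb1, Ccnb2, Kif4 and Kif22 have named pseudogenes that could take or lend reads.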

How the data were processed

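RNA of male germ cells was sequenced in 14 libraries of 7 groups, 2 per group. The deposited values are RPKM per gene symbol, made by the authors. The submitters' processing notes name TopHat2 2.1.1, Cufflinks 2.1.1 and mm10. The role of each tool, the annotation and the use of strand are not given in the sources used here. Per the labels' protocols, the kits were AllPrep DNA/RNA Micro for RNA and TruSeq Stranded mRNA LT for libraries. The files hold no counts, so depth was estimated from the RPKM steps of 3505 single-transcript genes of 800 to 8000 nucleotides. Of the low values, 60.2 to 68.8% lay within 0.2 of a whole fragment, so whole reads were not recovered and no count test was run. A depth fixed beforehand would give 40% by chance. Each depth was instead chosen for the best fit to whole fragments on these same values, so the 40% is no test of the estimate.

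Values were used as log2(RPKM + 1), so fold changes are on that scale and understate the change of low genes. A floor of 1 RPKM in 2 or more libraries kept 14772 genes and removed 9568. Limma 3.58.1 (trended eBayes, R 4.3.3) was fitted with 1 coefficient per group over all 14 libraries, with 7 residual degrees of freedom, and p-values (two-sided) were adjusted by Benjamini-Hochberg over all tested genes in each of the 8 comparisons (threshold 0.05). The fit was tested on simulated data with changes set in P3 DKO against P3 Ctrl. It recovered 17 of 100 changes of 0.6 on the log2 scale and 54 of 100 changes of 1, with 4 false calls. The SE of a log2 change had a median of 0.19 over all tested genes. An exact permutation test on 2 libraries against 2 cannot pass the threshold, so none was run. Where a library was left out, its partner was assumed to vary as samples elsewhere do.

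The 45 genes, the role lists, the 128 other pathway genes and the alternatives were chosen with earlier results of these data known. In each comparison every gene of the 45 past the threshold was named, or the 12 with the largest change where more passed, with up to 6 other pathway genes by size, Foxm1 and Mybl2. Genes named beyond that were chosen after their values were seen. The call of 1 gene outside the 45 is not reported here. Alternatives were a pseudocount of 0.1, no filter on low values, median centring, quantile normalization, a fit on the groups compared alone, a replicate block and leaving out libraries.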

Additional observations from a re-analysis of the deposited data

Results flagged for a closer look

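For 9 of the 45 genes the effect of DKO differed between P7 and P3 in a test of the difference itself (limma on the DKO change at P7 minus the DKO change at P3, adjusted over all tested genes). The difference was positive in each. At the kinetochore it was 1.52 on the log2 scale for Spc24 and 0.76 for Spc25 (limma adjusted p = 0.0285 and 0.00863). In the passenger complex it was 1.29 for Birc5 and 0.50 for Cdca8 (limma adjusted p = 0.0426 and 0.0486). The cyclin Ccna2 had 1.08 (limma adjusted p = 0.0157) and separase, Espl1, 0.79 (limma adjusted p = 0.0451). The chromokinesin Kif4 had 0.92 (limma adjusted p = 0.0441). The condensin ATPases Smc2 and Smc4 had 1.02 and 0.84 (limma adjusted p = 0.00556 and 0.00544). Smc4 had a change of 0.72 on P7 and -0.12 on P3, and Spc25 one of 0.28 on P7 and -0.47 on P3. The calls of Smc2, Smc4 and Spc25 held without each of the 8 libraries. With quantile normalization those of Spc25, Ccna2, Cdca8, Birc5 and Espl1 were lost, and with no filter on low values those of Cdca8, Birc5, Espl1, Spc24 and Kif4.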

How the results depend on the processing

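Over the 63 calls of members in 8 comparisons, 729 repeats under another setting kept 568 calls, lost 161 and reversed 0. Counts of members moved more than their directions. For P3 DKO, 5 became 1 with a pseudocount of 0.1, 11 with median centring, 0 with quantile normalization, 0 in a fit of the groups alone and 23 with both Sertoli-rich libraries left out. For P7 DKO, 3 became 5 with median centring, 13 in a fit of the groups alone and 8 without the Sertoli libraries. For P7 Ctrl against P3 Ctrl, 7 became 4 without a filter and 16 without the Sertoli libraries. For the difference between the ages, 9 became 4 without a filter, 4 with quantile normalization, and 15 both in a fit of its groups alone and without the Sertoli libraries. For P3 Ctrl against P3 WT, 1 became 0 without a filter, with median centring or in a fit of the groups alone, and 29 without the Sertoli libraries. For P7 DKO against P3 DKO, 38 ranged from 30 to 41 under these settings. The cause of these moves was not tested.

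The labels give no pairing by replicate number, and the numbers were not taken to pair the samples. Deviations of same-numbered libraries correlated over 0.1 in 7 of 21 pairs of groups (-0.13 to 0.58), among them the pairs of P3 Ctrl, P3 Jmjd1aKO and P3 Jmjd1bKO (0.17, 0.19 and 0.58), so a shared factor there is not settled. With the replicate number as a block, counts were 11 in P3 DKO, 8 in P7 DKO, 14 in P7 Ctrl against P3 Ctrl, 40 in P7 DKO against P3 DKO, 13 for the difference between the ages, 12 in P3 Ctrl against P3 WT (1 higher, 11 lower) and 0 in each single knockout.

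Leaving out 1 library gave 0 to 1 members in P3 DKO, 1 to 3 in P7 DKO, 1 to 11 in P7 Ctrl against P3 Ctrl, 28 to 35 in P7 DKO against P3 DKO, 3 to 14 for the difference between the ages, 0 to 0 in each single knockout and 0 to 3 in P3 Ctrl against P3 WT. The fit then has fewer samples. Of 92 median changes under another setting 4 had the opposite sign. In P3 Jmjd1bKO they were those without P3 Jmjd1bKO replicate 2 (-0.06), without P3 Ctrl replicate 1 (-0.10) and without both libraries with Sertoli transcripts (-0.06). The last was that of P7 DKO without P7 DKO replicate 2 (0.02). With groups of 2 and a median SE of 0.20 among the 45 genes, changes of the size of the medians on P3 can be missed. In simulated data, where few genes changed and each varied independently, the fit recovered 17 of 100 changes of 0.6 on the log2 scale. A gene that did not pass is therefore not shown to be unchanged, and depth beyond the estimate is unknown.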
